A study of Mus musculus with 6 samples.

Results

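Microglia digest what they engulf in lysosomes, and 39 genes that encode lysosomal hydrolases, their cofactors and proteins of the lysosomal membrane were examined in mouse microglia with and without active LACTB. The genes were chosen by name for their lysosomal role, and all 39 were found among the 15954 genes of the expression table. The comparison was between LACTB ED mice and LACTB WT mice. ED mice carry the substitution S162I on both alleles of Lactb (exon 3), introduced as a conditional knock-in in C57BL/6J embryonic stem cells, so that the mitochondrial serine protease LACTB is enzymatically dead. Mice of both genotypes were 3 months old, with 3 ED and 3 WT mice and 1 library per mouse. Brains were dissociated with enzymes, myelin and debris were removed by density gradient, and cells were collected on CD11b magnetic beads, which also bind other myeloid cells. In such bulk libraries, fewer cells of a type and less RNA per cell cannot be told apart.

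Lysosomes are acidic organelles in which soluble hydrolases break down lipids, sugar chains and proteins. Most of these hydrolases are tagged with mannose 6-phosphate in the Golgi and carried to the lysosome, where saposins and other activator proteins present lipids to them. The limiting membrane is coated with heavily glycosylated proteins and holds channels and transporters that export the products. Inherited loss of most of these enzymes causes a lysosomal storage disease, many of which affect the brain. Transcription factors of the TFEB and TFE3 family bind an E-box, CACGTG, usually flanked by T or A, near the start of many lysosomal genes.

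Promoter windows from RefSeq on GRCm38.p6, from 250 bases before the start to 50 bases after it, were matched for 36 of the 39 genes. The motif TCACGTG, searched on both strands so that CACGTGA counts as well, stood in the windows of 11 of these 36 genes (30.6%), beside 6.67% of the 11379 genes of the expression table that have a window and 4.29% of all 27025 genes that have one. The stretches around the motif are shown for 6 genes, namely the 4 with the 8-base palindrome TCACGTGA (Mcoln1, Cln3, Ctsa and Gla), Lamp1, which had the most copies, and Lgmn, the most abundant of the 11. Each is written 5′ to 3′ on the strand of the gene, with the motif in capitals.
Lamp1, chr8:13159087-13159163, plus strand: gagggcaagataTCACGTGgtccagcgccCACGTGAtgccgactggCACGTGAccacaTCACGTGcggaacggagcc
Mcoln1, chr8:3500435-3500492, plus strand: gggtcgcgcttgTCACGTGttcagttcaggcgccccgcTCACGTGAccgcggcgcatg
Cln3, chr7:126583339-126583397, minus strand: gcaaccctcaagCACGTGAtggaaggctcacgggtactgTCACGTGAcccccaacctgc
Ctsa, chr2:164833748-164833796, plus strand: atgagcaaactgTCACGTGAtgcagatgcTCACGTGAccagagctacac
Gla, chrX:134601181-134601245, minus strand: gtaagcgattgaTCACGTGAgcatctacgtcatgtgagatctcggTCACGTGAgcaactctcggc
Lgmn, chr12:102439124-102439154, minus strand: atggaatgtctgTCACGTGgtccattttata

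Lamp1 carried 4 copies within the 74 bases before its start, and Mcoln1, Cln3, Ctsa and Gla carried 2 each. Arsa, Gaa, Glb1, Lgmn, Naglu and Sgsh had 1 copy each, which gave 18 sites in all, 17 of them upstream of the RefSeq start. The gene coordinates given below are GENCODE extents, which begin further upstream for some genes. For Lgmn, and for the palindrome copy of Mcoln1, the motif therefore lies inside the printed extent. The same 11 genes held the core CACGTG, beside 11.4% of the table's genes with a window. The palindrome TCACGTGA, part of the 7-base count above, stood in 11.1% of the 36 genes and in 2.07% of the table's genes with a window. Shares count genes, and the 36 genes had 40 windows, since some had more than 1. These matches describe sequence and were not tested as binding sites. Windows were not matched for Npc1, Galns and Asah1.

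All values are normalized read counts, that is, reads per gene divided by 1 size factor per library. The libraries held 26024924 to 28122336 inferred reads in ED and 23394686 to 27432421 in WT. Lactb itself averaged 1491 ± 32.8 in ED and 1475 ± 85.0 in WT microglia (SD, n = 3 each), although a gene-level count does not read the substituted base and so does not check the genotype. The 10 microglia markers were all abundant, with a summed level of 934815 to 1010240 in ED and 934369 to 1115860 in WT. Markers of other cells were far lower. The summed level of 10 neuron markers was 2576 to 3345 in ED and 3678 to 3911 in WT, with 9 of the 10 lower in ED and 7 of them without overlap, beside 5.74% of all genes. None of the 10 passed the test by limma at an adjusted p of 0.05, and 6 had an unadjusted p under 0.05. The summed level of 10 endothelial markers was 3304 to 4216 in ED and 3409 to 6991 in WT, where WT replicate 2 was the highest library for 9 of the 10. Of 6 erythroid markers 2 were measured, summing to 41.1 to 70.3 in ED and 55.9 to 381 in WT. Summed levels were 8705 to 9476 in ED and 8175 to 9858 in WT for astrocyte markers, and 12089 to 14072 in ED and 12292 to 16136 in WT for oligodendrocyte markers. They were 693 to 3734 in ED and 789 to 2494 in WT for monocyte and neutrophil markers, and 49504 to 58753 in ED and 41928 to 55905 in WT for markers of macrophages of the brain borders, of which 9 of 10 were higher in ED (median log2 fold change 0.13) and 0 passed the test by limma, with 0 at an unadjusted p under 0.05.

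The lysosomal genes were among the most strongly expressed genes of these cells. Their mean levels ran from 213 normalized reads for Gla to 152443 for Psap, with a median of 7171, beside 400.5 for all genes of the table. All but Gla stood above the table's median (38 of 39), and 26 were in its top 10%. Psap ranked 6th, Lgmn 10th, Laptm5 13th and Grn 35th of the 15954 genes. Per kb of exon, the levels spanned 850-fold, between 65.4 reads per kb for Gla and 55555 for Psap, with a median of 1680 reads per kb. Lgmn, at 52795 reads per kb, was close behind Psap, and Laptm5 (30995), Grn (14390), Cd68 (13922) and Hexa (11897) followed. Galc, at 96.1, was the only other gene below 200 reads per kb, over 14879 exon bases from all its annotated transcripts. The 39 genes together made up 2.86%, 2.83% and 2.85% of the table's summed values in the ED libraries and 2.81%, 3.15% and 2.73% in the WT libraries. The WT values lay on both sides of the ED values, and the highest and lowest shares were both from WT mice. Psap, Lgmn and Laptm5 alone accounted for 51.9% to 53.6% of that sum in each library.

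**Figure D1:**
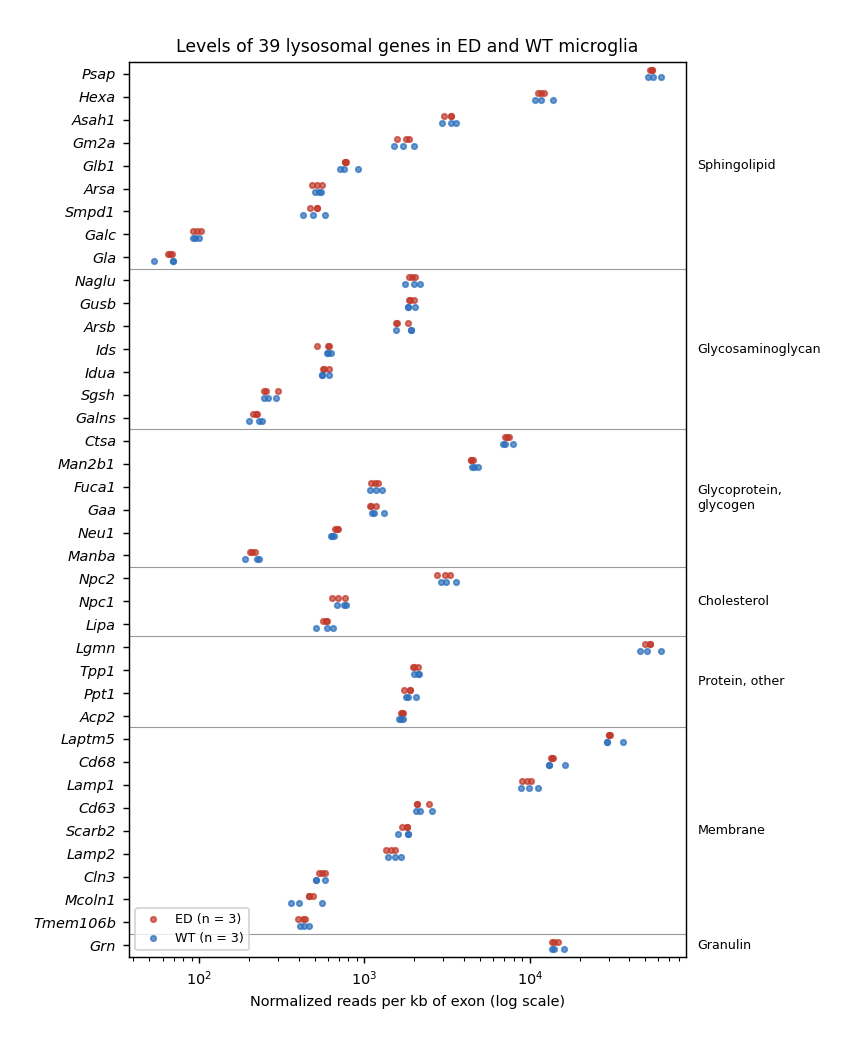
Normalized reads per kb of exon (log scale) of the 39 lysosomal genes in each ED (red, upper point row) and WT (blue, lower point row) library, grouped by role and ordered by level. Levels span 850-fold from Gla to Psap, while the points of the 2 genotypes overlap for all genes but Neu1.

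The first question was whether loss of LACTB activity altered the level of any of these genes. No lysosomal gene differed between ED and WT microglia by limma at an adjusted p of 0.05 (0 of 39, beside 0.0% of all genes), and the adjusted p was 1.00 for every one of them. At an unadjusted p under 0.05 there were likewise 0 of 39, where 1.82% of all genes reached that level. The smallest unadjusted p among the 39 was 0.287 by limma, for Neu1 with n = 3 mice per genotype. Log2 fold changes, ED over WT on log2(value + 1), lay between -0.11 for Arsb and 0.12 for Mcoln1. Their median was -0.03, beside 0.00 for all genes. Of the 39 genes, 28 were lower in ED (71.8%) and 11 higher, whereas 51.4% of all genes were lower. This lean depended on which library was left out. Without WT replicate 2, 9 of the 39 were lower and the median was 0.04, and without WT replicate 3, 35 were lower and the median was -0.10. Without ED replicate 3, 23 were lower and the median was -0.0034, close to that of all genes in the fit with no library left out.

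The 3 ED values were separate from the 3 WT values for 1 of the 39 genes, Neu1 (2.56%), beside 5.74% of all genes, and all 3 ED values stood above all 3 WT values for that gene, as for 2.32% of all genes. The 95% intervals were read for 1 gene at a time. They are not adjusted for the number of genes, and their widths draw on the spread of other genes. They therefore set no limit for the 39 genes together. Every interval of the 39 lay within 0.5 on the log2 scale in either direction, as did 59.7% of those of all genes, and 31 lay within 0.3. The outermost bounds were -0.39 for Laptm5, a level 0.762 times that of WT, and 0.44 for Mcoln1, a level 1.35 times that of WT. Standard errors were 0.07 to 0.15, and the median interval reached 0.22 to either side, compared with 0.31 over all genes.

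**Figure D2:**
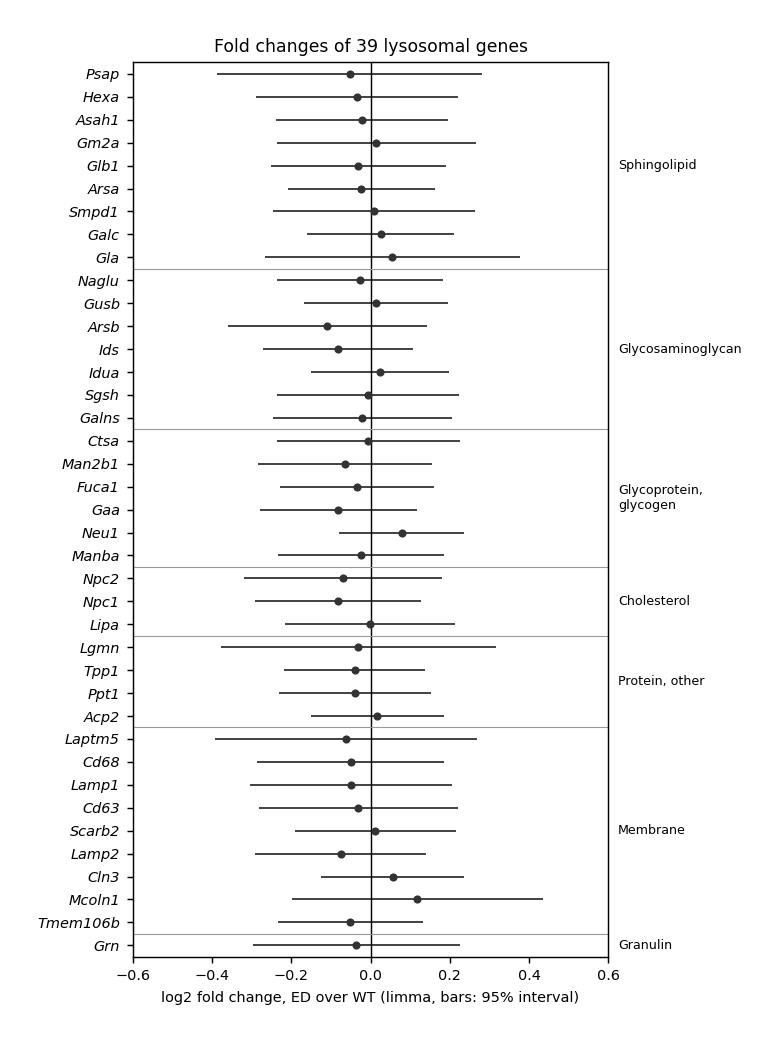
Log2 fold changes of the 39 genes, ED over WT (points), with 95% limma intervals (bars; n = 3 mice per genotype), grouped by role. All intervals include 0, and none reaches beyond -0.39 or 0.44.

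**Figure D3:**
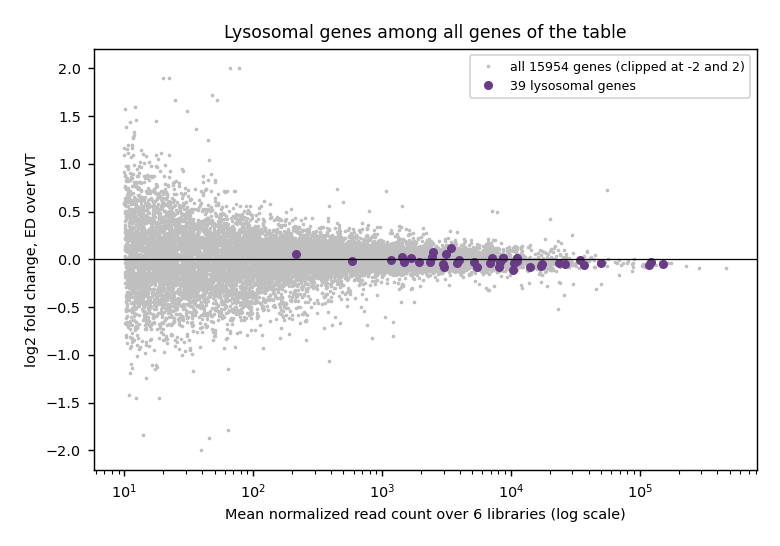
Log2 fold change, ED over WT, against the mean normalized read count over the 6 libraries (log scale) for all 15954 genes (grey, clipped at -2 and 2) and the 39 lysosomal genes (purple). All lysosomal genes but Gla, at a mean of 213 reads, lie above the table median of 400.5, up to 152443 for Psap, and all lie within -0.11 to 0.12 of log2 fold change.

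Genes of sphingolipid breakdown (9 genes) showed 5 lower and 4 higher in ED (median log2 fold change -0.02), and 0 passed the test. Psap (chr10:60277627-60302597 of GRCm38, plus strand) encodes the precursor of the saposins, which activate several of these hydrolases. It stood at 151358, 146486 and 150560 in ED and at 152260, 170535 and 143459 in WT, a log2 fold change of -0.05 (SE 0.15). The WT mice spanned the ED values on both sides. Gla, the alpha-galactosidase lost in Fabry disease (chrX:134588149-134601125, minus strand), was the least abundant of the 39. It stood at 216, 210.4 and 223 in ED and at 228.1, 228.1 and 174 in WT, so that WT replicate 3 alone was low (log2 fold change 0.06, SE 0.14).

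Hexa, the alpha subunit of beta-hexosaminidase that is lost in Tay-Sachs disease, averaged 23408 ± 981 in ED and 24086 ± 3224 in WT (SD, n = 3 each here and below). Its cofactor gene Gm2a, the GM2 ganglioside activator, averaged 7193 ± 594 in ED and 7148 ± 979 in WT. Neither difference approached the spread between WT mice. Glb1, the beta-galactosidase of GM1 ganglioside, averaged 2308 ± 24.9 in ED and 2371 ± 317 in WT. It shares 165 of its 3008 exon bases with Tmppe on the same strand. Galc, which degrades the myelin lipid galactosylceramide, averaged 1444 ± 84.9 in ED and 1417 ± 69.2 in WT, and Arsa, which removes sulfate from sulfatide, averaged 1910 ± 130 in ED and 1939 ± 90.6 in WT. Arsa shares 690 of its 3680 exon bases with C230037L18Rik on the opposite strand, where reads may be gained or lost. The acid ceramidase gene Asah1 averaged 10960 ± 576 in ED and 11147 ± 1093 in WT. The acid sphingomyelinase gene Smpd1, lost in Niemann-Pick disease types A and B, was at 1666 ± 93.6 in ED and 1666 ± 257 in WT.

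Genes of glycosaminoglycan breakdown (7 genes) had 5 lower and 2 higher in ED, with a median of -0.02. Arsb, arylsulfatase B (chr13:93771630-93943016, plus strand), had the lowest log2 fold change of the 39, -0.11 (SE 0.11, 95% interval -0.36 to 0.14). Its values were 9537, 11146 and 9402 in ED and 11561, 11597 and 9359 in WT. The groups overlapped, since WT replicate 3 was the lowest of the 6 and ED replicate 2 lay near the higher WT mice. Arsb shares 1948 of its 6037 exon bases with Gm26527 on the opposite strand, a gene that is not among those measured. Ids, iduronate 2-sulfatase (chrX:70343069-70365084, minus strand), stood at 2646, 3091 and 3052 in ED and at 3194, 3062 and 3030 in WT (log2 fold change -0.08, SE 0.08, 95% interval -0.27 to 0.11). ED replicate 1 alone was below the WT range.

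The other 5 enzymes of this group differed by less still. Gusb, the beta-glucuronidase, averaged 8694 ± 321 in ED and 8613 ± 481 in WT. Idua, the alpha-L-iduronidase lost in Hurler syndrome, averaged 2441 ± 96.8 in ED and 2403 ± 135 in WT. Of the enzymes that act on heparan sulfate, lost in forms of Sanfilippo syndrome, Naglu averaged 5149 ± 242 in ED and 5262 ± 552 in WT, and Sgsh averaged 1177 ± 124 in ED and 1181 ± 98.9 in WT. Sgsh shares 955 of its 4414 exon bases with Card14 on the opposite strand. Galns, which acts on keratan sulfate and chondroitin 6-sulfate, averaged 579 ± 19.1 in ED and 589 ± 54.2 in WT.

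Genes that degrade glycoproteins and glycogen (6 genes) had 5 lower and 1 higher in ED, with a median of -0.03. The exception was Neu1, the lysosomal sialidase (chr17:34931253-34935953, plus strand), which trims sialic acid from glycoproteins and is itself held in a complex with cathepsin A. Neu1 stood at 2564, 2470.4 and 2551 in ED and at 2384, 2357 and 2440 in WT. All 3 ED mice were above all 3 WT mice, and the gap between the closest mice, 2470.4 in ED and 2440 in WT, was small. The log2 fold change was 0.08 (SE 0.07, 95% interval -0.08 to 0.24). It did not pass the test (limma adjusted p = 1.00), and the exact two-sided permutation test gave p = 0.1, the smallest that 3 against 3 mice allow.

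Ctsa, the partner and protector of the sialidase, averaged 34263 ± 859 in ED and 34458 ± 2663 in WT. It shares 495 of its 4715 exon bases with Pltp on the opposite strand. Man2b1, the lysosomal alpha-mannosidase (chr8:85083270-85098282, plus strand), was the most abundant of this group, at 35381, 35378 and 36597 in ED and at 37105, 39144 and 36050.2 in WT. ED replicate 3 lay above WT replicate 3, and the log2 fold change was -0.06 (SE 0.10). Gaa, the acid alpha-glucosidase that degrades glycogen and is lost in Pompe disease, averaged 5334 ± 242 in ED and 5655 ± 520 in WT. The beta-mannosidase gene Manba averaged 1463 ± 43.2 in ED and 1492 ± 156 in WT, and the fucosidase gene Fuca1 averaged 3777 ± 183 in ED and 3876 ± 329 in WT.

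The 3 genes of cholesterol release and export were all on the lower side in ED, with a median of -0.07. Npc2 (chr12:84754562-84773152, minus strand) encodes the soluble carrier that passes free cholesterol to the membrane protein NPC1. It stood at 17938, 16804 and 15015 in ED and at 17049.6, 19521 and 15699 in WT (log2 fold change -0.07, SE 0.11). Npc1 stood at 7192, 7789.9 and 8577 in ED and at 8718, 8513 and 7685 in WT (log2 fold change -0.08, SE 0.09). The groups overlapped for both genes, and the mouse that was lowest for Npc2 among ED, replicate 3, was the highest for Npc1. Npc1 shares 511 of its 11317 exon bases with Rmc1 on the opposite strand. Lipa, the acid lipase that frees cholesterol from its esters, averaged 3932 ± 117 in ED and 3954 ± 461 in WT, the smallest difference of the 39 in log2 fold change (-0.0018).

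Of the 4 genes that act on proteins, lipid anchors and phosphate groups, 3 were lower and 1 higher in ED, with a median of -0.04. Lgmn, the asparagine-cleaving protease legumain (chr12:102394084-102439813, minus strand), stood at 123248, 123273 and 116294 in ED and at 119762, 144680 and 108606 in WT. WT replicate 2 was the highest and WT replicate 3 the lowest of all 6 libraries, and the log2 fold change was -0.03 (SE 0.15). Tpp1, the tripeptidyl peptidase whose loss causes CLN2 disease (chr7:105744811-105752235, minus strand), stood at 10109, 10330.5 and 10853 in ED and at 10297, 11034 and 10843 in WT. These values overlapped, and ED replicate 1 alone lay outside the WT range, with a log2 fold change of -0.04 (SE 0.08). Ppt1, the palmitoyl-protein thioesterase of CLN1 disease, averaged 6731 ± 292 in ED and 6929 ± 543 in WT. Acp2, the lysosomal acid phosphatase, averaged 8760.3 ± 123 in ED and 8659 ± 246 in WT, and was the steadiest of the 39 over the 6 libraries, with the highest value 1.06 times the lowest. It shares 652 of its 5186 exon bases with Ddb2 on the opposite strand.

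Genes of lysosomal membrane proteins (9 genes) had 6 lower and 3 higher in ED, with a median of -0.05. Mcoln1 (chr8:3500457-3515232, plus strand) encodes the calcium channel TRPML1 and had the highest log2 fold change of the 39, 0.12 (SE 0.14, 95% interval -0.20 to 0.44). It stood at 3483, 3474 and 3689 in ED and at 3055, 2717 and 4205 in WT. The ED mice lay together between WT mice that were 1.55-fold apart, the widest span of any of the 39 genes and the only one above 1.5. Mcoln1 was lowest in WT replicate 2 and highest in WT replicate 3, the reverse of most of the other genes. Without WT replicate 3 its log2 fold change was 0.30 (limma adjusted p = 0.860), and without WT replicate 2 it was -0.01.

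Laptm5, a lysosomal transmembrane protein of hematopoietic cells (chr4:130913125-130936141, plus strand), stood at 114343, 115185 and 114227 in ED and at 111213, 138453 and 111038 in WT. The ED mice were nearly equal, and WT replicate 2 was above the other 5 libraries (log2 fold change -0.06, SE 0.15). The 2 main coat proteins of the membrane were at similar levels in both genotypes: Lamp1 averaged 25700.1 ± 1497 in ED and 26676 ± 3203 in WT, and Lamp2, which also serves in chaperone-mediated autophagy, averaged 13789.7 ± 840.05 in ED and 14544 ± 1248 in WT. Cd68, the scavenger receptor family member used as a marker of phagocytic microglia, averaged 17148 ± 249 in ED and 17851 ± 2311 in WT. The tetraspanin gene Cd63 averaged 8133 ± 842 in ED and 8319 ± 1031 in WT. Scarb2, the receptor that carries glucocerebrosidase to the lysosome, averaged 11094 ± 488 in ED and 11019 ± 898 in WT. Cln3, the membrane protein of juvenile Batten disease, averaged 3202 ± 116 in ED and 3084 ± 221 in WT, and shares 442 of its 5781 exon bases with Apobr on the opposite strand. Tmem106b, which regulates lysosome size and position, averaged 2893 ± 140.4 in ED and 2998 ± 193 in WT.

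Grn, on chromosome 11 (chr11:102430315-102437048, plus strand), encodes progranulin, which is processed in lysosomes to granulins and whose loss causes frontotemporal dementia or neuronal ceroid lipofuscinosis in humans. It stood at 48732, 47385 and 51822 in ED and at 48487, 56212 and 47309 in WT. The ED values fell within the WT range, with a log2 fold change of -0.04 (SE 0.12).

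The lysosomal genes varied more among the WT mice than among the ED mice. WT replicate 2 was the highest of the 6 libraries for 28 of the 39 genes, beside 26.2% of all genes and 32.1% of genes at or above the level of the least abundant of the 39. WT replicate 3 was the lowest for 22 of the 39, beside 15.3% of all genes. The median distance of the 39 genes from their own means, on the log2 scale, was -0.00, -0.01 and -0.04 in the ED libraries and -0.02, 0.14 and -0.08 in the WT libraries. All ED medians thus lay between those of WT replicates 2 and 3. The median over all genes was 0.00 in each of the 6 libraries, where the size-factor scaling holds it. Over genes at or above the level of the least abundant of the 39, the median was 0.02 in WT replicate 2 and -0.01 in WT replicate 3. The SD on the log2 scale was larger in WT than in ED for 32 of the 39 genes, beside 62.0% of all genes. By role, WT replicate 2 was the highest library for 7 of 9 sphingolipid genes, 4 of 7 glycosaminoglycan genes, 5 of 6 glycoprotein and glycogen genes, 2 of 3 cholesterol genes, 4 of 4 genes for proteins, lipid anchors and phosphate, 5 of 9 membrane genes and Grn.

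Among the WT mice, 4 genes, namely Idua, Neu1, Cln3 and Mcoln1, were highest in replicate 3. These include 3 of the 4 genes with the highest log2 fold changes, Mcoln1, Neu1 and Cln3. WT replicate 2 was also the library with the highest endothelial and erythroid markers, at 1.10 and 2.27 log2 above their means in the median. The median distance of the 10 microglia markers from their means was 0.02, 0.03 and -0.09 in the ED libraries and 0.01, 0.14 and -0.11 in the WT libraries. For the 10 monocyte and neutrophil markers it was -0.37, -1.21 and 1.82 in the ED libraries and -0.04, 1.08 and -1.04 in the WT libraries. The part of these cells, or of neuronal and border macrophage transcripts, in the levels of the lysosomal genes was not tested.

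**Figure D4:**
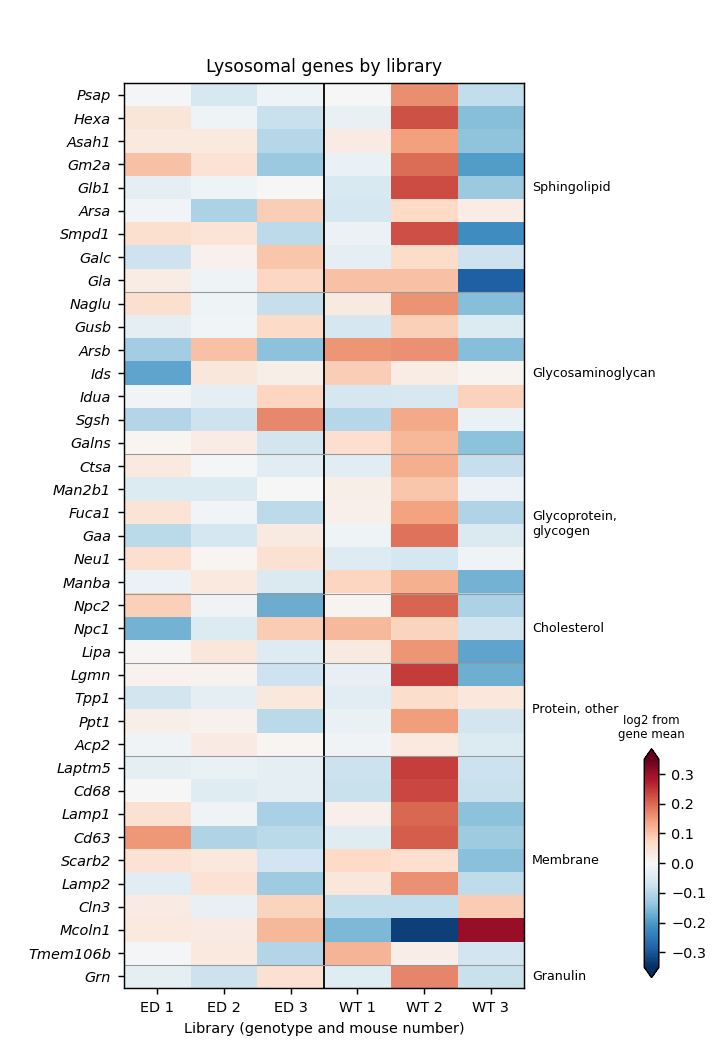
Log2 distance of each gene from its mean over the 6 libraries (colour, red above and blue below, with the scale ending at -0.35 and 0.35) for the 39 genes, grouped by role, in ED and WT mice. WT replicate 2 is red for most genes and the highest library for 28, WT replicate 3 is mostly blue, and Mcoln1 shows the opposite colours.

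Related lysosomal genes outside the 39 were read from the same fit, and in 6 lists of them 0 genes passed the test at an adjusted p of 0.05 and 0 reached an unadjusted p under 0.05 by limma. The 22 other hydrolase genes had 11 lower and 11 higher in ED with a median of -0.00, and 17 were highest in WT replicate 2. Without WT replicate 2, 3 of the 22 were lower with a median of 0.06, and without WT replicate 3, 20 of the 22 were lower with a median of -0.07. Pld3, a lysosomal nuclease, averaged 6386 ± 254 in ED and 6855 ± 737 in WT, and the mannosidase gene Man2b2 averaged 9803 ± 380 in ED and 10350 ± 474 in WT.

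The 24 other membrane protein genes leaned the other way, with 6 lower and 18 higher and a median of 0.02, and only 5 were highest in WT replicate 2. Slc38a9, an amino acid sensor for mTORC1, averaged 1633 ± 62.7 in ED and 1452 ± 222 in WT (log2 fold change 0.18). Mfsd8, the transporter of CLN7 disease, averaged 504 ± 28.3 in ED and 462 ± 15.0 in WT (0.12), and Cd164, a sialomucin and the most abundant of this list, averaged 21040 ± 1681 in ED and 21521 ± 1587 in WT. The cystine exporter gene Ctns, named here because its groups did not overlap, averaged 2109 ± 17.1 in ED and 2023 ± 54.3 in WT. Without WT replicate 2, 6 of the 24 were lower with a median of 0.04, and without WT replicate 3, 12 of the 24 were lower with a median of 0.00.

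The vacuolar proton pump that acidifies lysosomes had 15 of its 19 measured genes lower and 4 higher, with a median of -0.05, and 11 were highest in WT replicate 2. Without that library 9 of 19 were lower and the median was 0.00. Its most abundant gene, Tcirg1, which encodes a membrane subunit, followed the order of Mcoln1, at 21733, 21071 and 25178 in ED and at 19497, 16556 and 26826 in WT. WT replicate 2 was the lowest and WT replicate 3 the highest, with the ED mice between them. Atp6v0e2, a gene for a small subunit, averaged 165 ± 28.6 in ED and 197 ± 26.7 in WT (log2 fold change -0.26), and Atp6v1h, a regulatory subunit of the cytosolic part, averaged 1049 ± 80.3 in ED and 1138 ± 155 in WT (-0.11).

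Genes that deliver hydrolases to lysosomes (19 genes) had 10 lower and 9 higher with a median of -0.03. Ap1b1, an adaptor subunit of clathrin coats at the Golgi, averaged 5574 ± 79.8 in ED and 5846 ± 87.9 in WT without overlap between the groups (log2 fold change -0.07). Gga2, another Golgi adaptor, averaged 894 ± 36.4 in ED and 848 ± 61.0 in WT, and the sorting receptor gene Sort1 averaged 10326 ± 199.9 in ED and 10681 ± 1143 in WT. The 19 genes of TFEB and its control by mTORC1 had 11 lower and 8 higher with a median of -0.01. Flcn, a GTPase-activating protein in that control, averaged 7222 ± 287 in ED and 6748 ± 512 in WT, and its partner gene Fnip1 averaged 1843 ± 107 in ED and 1718 ± 177 in WT. The 20 autophagy genes had 12 lower and 8 higher with a median of -0.01. Map1lc3a averaged 1031 ± 122 in ED and 1128 ± 177 in WT, Gabarapl2 averaged 944 ± 111 in ED and 994 ± 84.9 in WT, and the cargo receptor gene Sqstm1 averaged 6453 ± 399.8 in ED and 6690.4 ± 564 in WT.

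**Figure D5:**
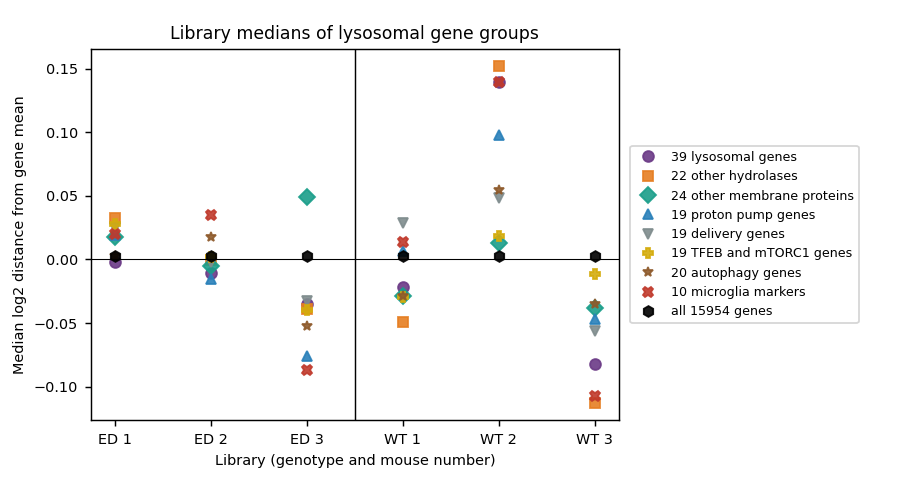
Median log2 distance from the gene means, per library, for the 39 lysosomal genes, 6 related gene lists, the 10 microglia markers and all 15954 genes. In WT replicate 2 the 39 genes (0.14), the other hydrolases (0.15) and the microglia markers (0.14) stand together above the other lists. The median of all genes is 0.00 in each library, where the size-factor scaling holds it.

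Fold changes were last read by promoter sequence. Of the 11 genes that held TCACGTG in the window, 8 were lower in ED, with a median log2 fold change of -0.02. Of the 25 with a window and no such motif, 17 were lower, with a median of -0.03. Of the 4 genes with the palindrome, the log2 fold change was 0.12 for Mcoln1, 0.06 for Cln3, 0.06 for Gla and -0.01 for Ctsa, and none of them passed the test. Neu1, at 0.08, had no match in its window.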

How the data were processed

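Polyadenylated RNA of CD11b-isolated microglia was sequenced as paired reads from 3 ED and 3 WT mice. The tools in the submitters' processing notes are DESeq2 (version not given), featureCounts from Subread 1.5.2, STAR 2.5.2b and Trimmomatic 0.36, on build GRCm38. The methods of the paper name a human build and partly other tools. The strand setting of the counting is not stated, and 14 of the 39 genes share exon bases with another gene, where reads may be gained or lost. The signal values deposited by the authors are reads per gene, scaled by 1 size factor for each library, with no gene under a mean of 9.87. Their fold change, p and adjusted p columns were not used. Inferred reads per library were 23394686 to 28122336, from the spacing of the values. Because the lowest genes of the ED libraries held more than 1 read, the reads stayed inferred and the planned edgeR and DESeq2 fits were not run.

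Genotypes were taken from the sample titles. Values were fitted as log2(value + 1) with limma 3.58.1 in R 4.3.3 (genotype only, mean-variance trend, Benjamini-Hochberg over all 15954 genes, threshold 0.05), after the fit was tested on simulated data. Fold changes on this scale understate those of weakly expressed genes. Single genes were also compared by an exact two-sided permutation test. With 3 mice per genotype, limma p-values, SEs and intervals combine a gene's spread between these mice with a trend over all genes. Levels per kb used GENCODE M21 exon lengths, taken over the exons of all annotated transcripts of a gene (15922 genes matched). Alternatives were pseudocount 8, no trend, a mean of at least 50, upper-quartile scaling, mouse number as a block, and leaving out each library. All 39 genes were named. Values per library were given for the gene with the smallest p and the most abundant gene of each role, and for any gene without overlap. Up to 2 genes with the smallest p and the most abundant gene were named from each related list. A gene that this rule would name is not reported here. The genes and lists were chosen with earlier results of these data known. Protein sequences were not used here.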

Additional observations from a re-analysis of the deposited data

How the results depend on the processing

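No lysosomal gene passed the adjusted threshold under any alternative (smallest adjusted p = 0.860 by limma, without WT replicate 3), and 0 of all genes passed in each. The count of genes with an unadjusted p under 0.05 was 290, against 498 without the mean-variance trend, 180 among genes with a mean of at least 50 and 216 to 912 with each library left out, the highest without WT replicate 3. Among the 39 the same count was 0 to 1, the 1 being Mcoln1 without WT replicate 3. The planned edgeR and DESeq2 fits were not run. The deviations of same-numbered mice correlated at -0.10, 0.05 and 0.27, and those of differently numbered mice at -0.30 to 0.28. Deviations were taken from means of 3 mice, so these correlations constrain each other. They cannot decide whether mouse numbers pair the samples. With the replicate block 403 genes reached an unadjusted p under 0.05, and 0 passed, so none of the 39 genes changed call. Each mouse number holds 1 ED and 1 WT library, so this block could not change a fold change or its direction.

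With each library left out, the number of the 39 genes lower in ED ran from 9 to 35 and their median log2 fold change from -0.096 to 0.040. Directions turned for 21 of the 39 without WT replicate 2, and Lipa turned with upper-quartile scaling (0.0033). The cause was not tested. Over the 6 fits that leave out a library, 29 genes took both signs, with the lowest and highest log2 fold changes as follows. Sphingolipid genes: Psap -0.11 to 0.016, Gla -0.074 to 0.12, Hexa -0.12 to 0.070, Gm2a -0.080 to 0.12, Glb1 -0.10 to 0.075, Arsa -0.071 to 0.027, Asah1 -0.097 to 0.045, Smpd1 -0.097 to 0.12 and Galc -0.016 to 0.069. Glycosaminoglycan genes: Gusb -0.015 to 0.060, Idua -0.0087 to 0.070, Naglu -0.11 to 0.044, Sgsh -0.092 to 0.059 and Galns -0.098 to 0.031. Glycoprotein and cholesterol genes: Manba -0.11 to 0.033, Fuca1 -0.096 to 0.026, Ctsa -0.048 to 0.056, Npc2 -0.14 to 0.016 and Lipa -0.094 to 0.075. Other soluble proteins: Lgmn -0.12 to 0.084, Ppt1 -0.082 to 0.023, Acp2 -0.0026 to 0.038 and Grn -0.083 to 0.041. Membrane genes: Lamp1 -0.13 to 0.040, Cd63 -0.11 to 0.067, Cd68 -0.10 to 0.054, Scarb2 -0.057 to 0.050, Laptm5 -0.12 to 0.044 and Mcoln1 -0.015 to 0.30. The other 10 (Gaa, Ids, Arsb, Man2b1, Neu1, Npc1, Lamp2, Tpp1, Cln3 and Tmem106b) kept their direction under every alternative run. Of these alternatives, no trend, a mean of at least 50 and the replicate block could not turn a direction, since they leave the fold change as it was. With 3 mice per genotype, the 95% intervals of the 39 genes reached 0.22 to either side in the median, which limits the differences that could be told from 0.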
